A study of Mus musculus with 6 samples.

Results

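The 10 genes described here encode the TGF-beta ligands (Tgfb1, Tgfb2 and Tgfb3), their 2 signalling receptors (Tgfbr1 and Tgfbr2), the latent TGF-beta binding proteins (Ltbp1, Ltbp2, Ltbp3 and Ltbp4) and osteopontin (Spp1). They were listed by symbol as known modifiers of dystrophic muscle, and all 10 were found among the 54393 genes of the table. RNA was sequenced from the tibialis anterior, a shin muscle, of adult mice, with 3 wild-type (WT) muscles, titled C57, and 3 muscles lacking Dock3 (Dock3 KO). Dock3 encodes an activator of the small GTPase Rac. Both groups share age class, tissue and ribosomal RNA depletion. The labels name no strain for the Dock3 KO mice, no sex, and neither the allele nor whether the muscles of a group came from separate animals, so that p-values measure the spread between these muscles.

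TGF-beta is secreted as a latent complex. The ligand's own propeptide folds around it, and most latent TGF-beta binding proteins hold that complex in the extracellular matrix, where they attach to fibrillin, until integrins, proteases or thrombospondin release it. The free ligand brings together the type II receptor (Tgfbr2) and the type I receptor (Tgfbr1), which phosphorylates Smad2 and Smad3. In skeletal muscle the pathway is known for driving fibrosis and for restraining regeneration. Osteopontin is a secreted phosphoprotein of the matrix that binds integrins and CD44 and is made by macrophages and by injured muscle. Ltbp4 and osteopontin are both known as genetic modifiers of muscular dystrophy.

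None of the 10 genes passed the test between WT and Dock3 KO muscle. In the limma test over all genes 0 of 10 had an adjusted p under 0.05, where 1.03% of the 16031 genes tested did (0.443% higher and 0.586% lower in Dock3 KO). At an unadjusted p under 0.05 there was 1 of 10, Spp1, lower in Dock3 KO, where 10.5% of all genes reached that level (4.82% higher and 5.7% lower). The groups overlapped for all 10 genes, whereas they did not overlap for 16.2% of all genes. The log2 differences ran from -1.22 for Spp1 to 0.45 for Ltbp3, with 5 above and 5 below 0 and a median of 0.03, against a median of -0.01 over all genes tested. All log2 differences are Dock3 KO minus WT on the scale log2(normalized count + 1), which understates changes of low genes. All 10 genes passed the filter on low values, set at a mean of 10 over the 6 muscles.

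The summed normalized counts of the 6 libraries lay between 23520223 and 33393950. Divided by the commonest low value of each library, these would be approximately 21700000 to 32400000 reads. Most low values were not whole multiples of that value, so this depth is only a rough guide. Dock3 itself, the check on the labels, was at 118 to 169 normalized counts in WT, against 1.54 to 22.4 in Dock3 KO (log2 difference -4.76, limma adjusted p 0.0140), the 22.4 belonging to Dock3 KO replicate 1. Its call was lost in 7 of 18 alternatives, with limma adjusted p-values from 0.000273 to 0.123. A pair of abundant transcripts, Gm42418 and Lars2, made up 17.9% and 20.3% of the sums of Dock3 KO replicates 1 and 2 and 3.00% to 3.64% of the others, so the counts of members and of the 5 pathway lists were also taken without these libraries. The 8 markers of muscle fibres, the labelled tissue, were abundant, 0 of 8 passed the limma test (0 at an unadjusted p under 0.05), and their summed normalized count was 1657800 to 1782530 in WT and 1675340 to 1836080 in Dock3 KO. In whole muscle, fewer cells of a type and less RNA per cell cannot be told apart.

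**Figure D1:**
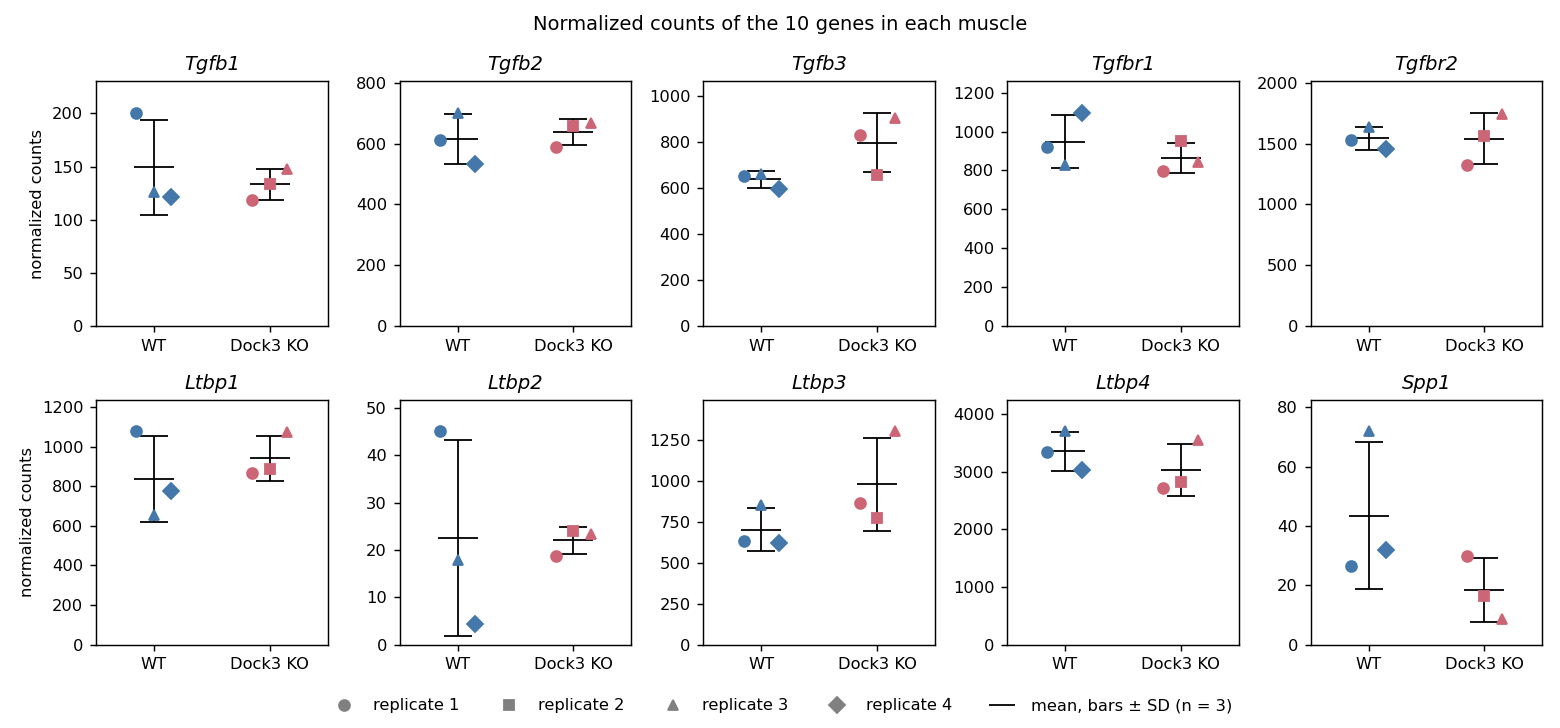
Normalized counts (vertical axes, each from 0) of the 10 genes in the 3 WT and 3 Dock3 KO muscles. Points are muscles, shaped by replicate number, and bars show the mean ± SD (n = 3 each). The groups overlap in every panel, and Spp1 and Ltbp2 are the lowest genes.

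Per length of transcript, Ltbp4 stood far above the other 9 genes. Normalized counts per kilobase of the longest annotated transcript allow levels of different genes to be compared. On that scale Ltbp4 reached 622 ± 62.7 in WT and 562 ± 84.8 in Dock3 KO muscle (SD, n = 3 each), and its lowest muscle (504) lay above the highest value of any other member (267, Tgfb3). Tgfbr2, Tgfb3 and Tgfbr1 followed with WT means of 191, 188 and 165 per kilobase, then Ltbp1, Ltbp3 and Tgfb2 with 125, 123 and 120.3. These 6 formed a run in which each gene's range over the 6 muscles overlapped that of the next. Tgfb1 came below all of them at 58.0 ± 17.3 per kilobase in WT, with no overlap with Tgfb2. Spp1 (28.8 ± 16.5) and Ltbp2 (3.31 ± 3.05) were lowest, and although the ranges of Tgfb1, Spp1 and Ltbp2 touched, Tgfb1 was above Spp1 and Spp1 above Ltbp2 within each of the 6 muscles. The order by means was the same in Dock3 KO except among Tgfbr2, Tgfb3, Tgfbr1, Ltbp1 and Ltbp3, where Tgfb3 stood above Tgfbr2, and Ltbp3 above Tgfbr1 and Ltbp1.

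Among the ligands, Tgfb3 was the most abundant message and Tgfb1, the isoform most often tied to fibrosis, the least. Tgfb3 (ENSMUSG00000021253, chromosome 12, 86056745 to 86079041, minus strand, GENCODE M21 on GRCm38) measured 652, 661 and 596 normalized counts in the WT muscles (replicates 1, 3 and 4, in this order throughout). The Dock3 KO muscles (replicates 1, 2 and 3) measured 829.8, 654 and 904. Dock3 KO replicates 1 and 3 lay above all WT muscles and replicate 2 lay among them. The log2 difference was 0.31 (SE 0.154), with a 95% interval from -0.03 to 0.65 (unadjusted p 0.0714 and adjusted p 0.532 in limma). Over the alternatives it ran from 0.035, with libraries rescaled to the same total, to 0.54. Tgfb3 lies on the strand opposite Ttll5, whose own values were 133 to 245. The libraries were made with a stranded kit, but the use of strand in counting is not given in the sources used here.

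Tgfb1 (ENSMUSG00000002603, chromosome 7, 25687002 to 25705077, plus strand) was at 200.5, 126 and 121 in WT, against 118, 134 and 148 in Dock3 KO. The Dock3 KO values lay between WT replicates 4 and 1 or just below replicate 4, and WT replicate 1 alone stood apart. Its log2 difference of -0.13 (SE 0.240, 95% interval -0.66 to 0.40, limma adjusted p 0.916) became 0.10 without WT replicate 1 and 0.024 without Dock3 KO replicates 1 and 2. Tgfb2 (ENSMUSG00000039239, chromosome 1, 186622792 to 186705989, minus strand), the isoform prominent in the developing heart and skeleton, was at 612, 701 and 534 in WT, against 589, 659.9 and 669 in Dock3 KO. All 3 Dock3 KO values lay inside the WT range. The log2 difference was 0.06 with a 95% interval from -0.27 to 0.39, so that a change beyond 1.31-fold upward or below 0.829-fold lies outside the interval (limma adjusted p 0.940).

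As a share of the 3 ligands per kilobase, Tgfb3 held 51.5% ± 2.19 in WT and 56.9% ± 4.62 in Dock3 KO, Tgfb2 held 32.8% ± 2.76 and 30.5% ± 3.43, and Tgfb1 held 15.7% ± 3.75 and 12.6% ± 1.29 (SD, n = 3 each). A share within a muscle does not depend on how libraries were scaled. The shares of all 3 ligands overlapped between genotypes.

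**Figure D2:**
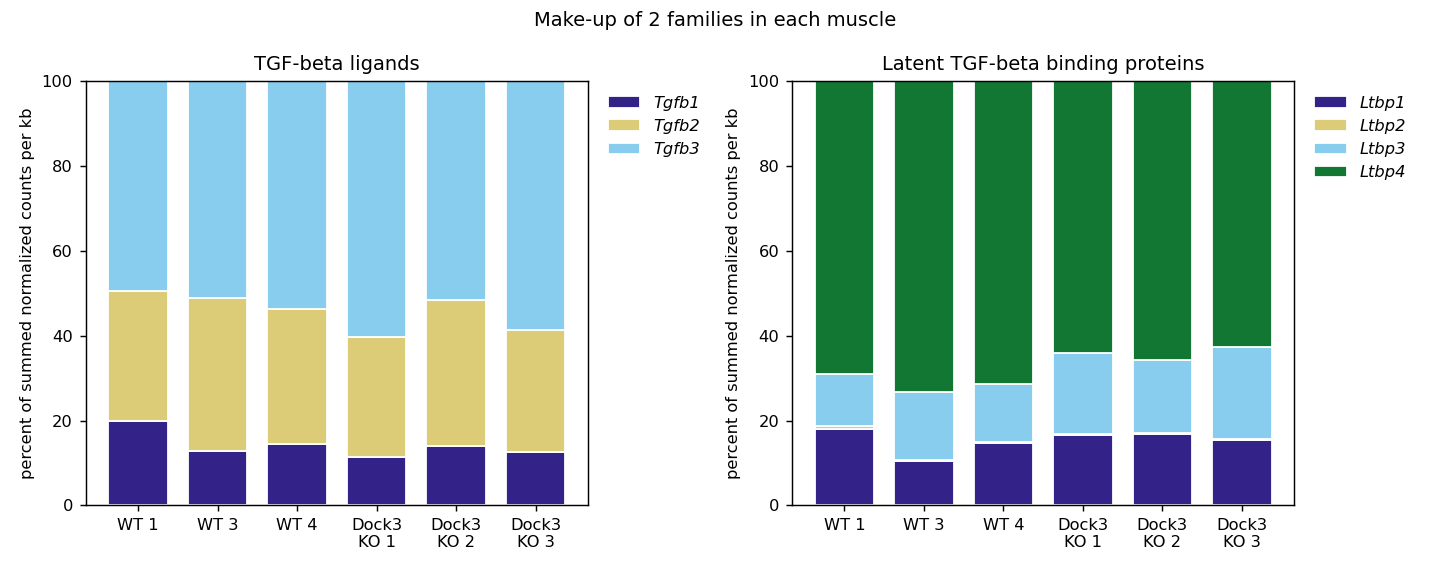
Share (vertical axis, percent of the family's summed normalized counts per kilobase) of each TGF-beta ligand, left, and each latent binding protein, right, in each of the 6 muscles (horizontal axis). Ltbp4 makes up 62.7% to 73.3% of its family. Its share, singled out after its values were seen, is lower in all 3 Dock3 KO muscles than in any WT muscle. Its normalized counts overlap between genotypes, and 16.3% of all gene pairs have ratios without overlap.

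On the deposited scale both receptors had narrow intervals around a small difference. With libraries rescaled to the same total, Tgfbr2 stood at -0.28 and Tgfbr1 at -0.40 (limma adjusted p 0.507 and 0.324). Tgfbr2 (ENSMUSG00000032440, chromosome 9, 116084293 to 116175360, minus strand), the receptor that binds ligand first, was at 1534, 1639.7 and 1455 in WT, against 1322, 1563 and 1741 in Dock3 KO. The Dock3 KO muscles held both the lowest and the highest value. Its log2 difference was -0.01 with a 95% interval from -0.31 to 0.30, which spans 0.804-fold to 1.23-fold (limma adjusted p 0.995). Tgfbr1 (ENSMUSG00000007613, chromosome 4, 47353222 to 47414931, plus strand), the kinase that phosphorylates Smad2 and Smad3, was at 919, 827 and 1095 in WT, against 799, 949 and 841 in Dock3 KO. These ranges overlapped too, with a log2 difference of -0.13 (95% interval -0.46 to 0.20, limma adjusted p 0.846).

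Of the latent binding proteins, Ltbp4 and Ltbp3 had estimates of opposite sign. Ltbp4 (ENSMUSG00000040488, chromosome 7, 27305136 to 27337692, minus strand) measured 3336, 3697 and 3022 normalized counts among WT muscles, against 2714, 2813 and 3549.9 among Dock3 KO muscles. Dock3 KO replicates 1 and 2 were the lowest of the 6 muscles and replicate 3 was the second highest. The log2 difference was -0.15 (SE 0.144), with a 95% interval from -0.47 to 0.17 (limma adjusted p 0.787), and it was 0.088 without Dock3 KO replicates 1 and 2.

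Ltbp3 (ENSMUSG00000024940, chromosome 19, 5740904 to 5758532, plus strand), which serves bone and tooth development and aortic integrity, was at 635, 853 and 622 in WT, against 863, 772 and 1303 in Dock3 KO. Dock3 KO replicate 3 was the highest and WT replicate 3 lay between the Dock3 KO muscles. The log2 difference was 0.45 (SE 0.211), with a 95% interval from -0.02 to 0.92 (unadjusted p 0.0567 and adjusted p 0.496 in limma). It was 0.23 without Dock3 KO replicate 3, 0.18 when libraries were rescaled to the same total, 0.90 without Dock3 KO replicates 1 and 2 and 0.98 with Gm42418 as a covariate, with limma adjusted p-values of 0.765, 0.747, 0.384 and 0.272.

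Ratios between members within a muscle separated the genotypes no more often than those of other genes: 6 of 45 (13.3%) did not overlap, against 16.3% of all pairs of genes tested. The ratio of Ltbp3 to Ltbp4 normalized counts was 0.190, 0.231 and 0.206 in WT and 0.318, 0.274 and 0.367 in Dock3 KO, so that every Dock3 KO muscle lay above every WT muscle. This ratio, chosen after its values were seen, is the same under any scaling of whole libraries. The other 5 were Tgfb3 to Ltbp4 (0.179 to 0.197 in WT and 0.232 to 0.306 in Dock3 KO), Tgfbr2 to Ltbp4, Ltbp1 to Tgfb1, Tgfb3 to Spp1 and Ltbp3 to Spp1. As a share of the 4 binding proteins per kilobase, Ltbp4 held 69.0%, 73.3% and 71.3% in WT and 64.0%, 65.8% and 62.7% in Dock3 KO, while Ltbp3 held 12.3%, 15.9% and 13.8% in WT and 19.1%, 17.0% and 21.6% in Dock3 KO. How often shares within other gene families separate the genotypes was not counted.

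The other 2 binding proteins also overlapped between genotypes. Ltbp1 (ENSMUSG00000001870, chromosome 17, 75005568 to 75392512, plus strand), the binding protein first described with TGF-beta1, was at 1077, 656 and 777 in WT, against 865, 885 and 1072 in Dock3 KO. The Dock3 KO values lay inside the WT range (log2 difference 0.19, 95% interval -0.23 to 0.62, limma adjusted p 0.798). Ltbp2 (ENSMUSG00000002020, chromosome 12, 84783212 to 84876532, minus strand), the family member that does not bind latent TGF-beta, was at 45.0, 17.9 and 4.41 in WT, against 18.7, 24.0 and 23.4 in Dock3 KO. The 3 WT muscles spread widely around the 3 Dock3 KO muscles. Its Dock3 KO mean was 0.982 of its WT mean, its log2 difference was 0.45 with an interval from -1.11 to 2.01, and it was -0.36 without WT replicate 4, so that no direction can be given (limma adjusted p 0.897).

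**Figure D3:**
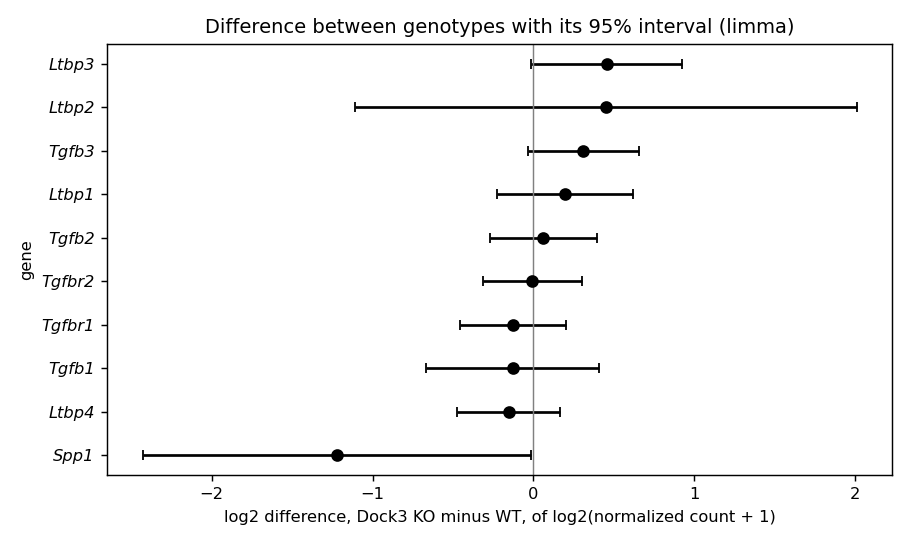
Log2 difference between Dock3 KO and WT (horizontal axis) of each of the 10 genes (vertical axis), with bars showing the 95% interval from limma before adjustment over genes. The receptors, Tgfb2 and Ltbp4 have the narrowest intervals, Ltbp2 and Spp1 the widest, and only the interval of Spp1 leaves out 0, ending at -0.01.

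Spp1 (ENSMUSG00000029304, chromosome 5, 104435118 to 104441050, plus strand) had the largest difference and was low throughout. It measured 26.4, 71.8 and 31.8 normalized counts among WT muscles, against 30.0, 16.4 and 8.61 among Dock3 KO muscles. Dock3 KO replicates 2 and 3 were below all WT muscles, replicate 1 lay between WT replicates 1 and 4, and WT replicate 3 was the highest of the 6. Means were 43.4 ± 24.8 for WT and 18.3 ± 10.8 for Dock3 KO (SD, n = 3 each). The log2 difference was -1.22 (SE 0.540), with a 95% interval from -2.43 to -0.01 (unadjusted p 0.0477 and adjusted p 0.467 in limma). It ranged from -2.08 to -0.79 over 17 alternatives, below 0 in each, with adjusted p-values from 0.212 to 0.816. Without WT replicate 3 it was -0.79, without Dock3 KO replicate 3 it was -0.80, and without Dock3 KO replicates 1 and 2 it was -2.07. Gm42793, which overlaps Spp1 on the same strand, was listed at 0 in all 6 muscles.

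Markers of cells that can make osteopontin were set beside these values. WT replicate 3, the muscle with the most Spp1, was also highest for 4 contractile genes of smooth muscle: Acta2, Tagln, Myh11 and Cnn1, a set put together after its values were seen, summed to 4839 normalized counts there and to 1114 to 1414 in the other 5 muscles. The listed 6 smooth muscle and pericyte markers, led by Des and Rgs5, summed to 41571 there, 37129 to 46180 over WT and 39794 to 47191 over Dock3 KO. Des alone measured 26886 to 34558 over the 6 muscles, so it made up most of this sum. Myh11, Cnn1 and Notch3 of this list were highest in WT replicate 3, while Des, Rgs5 and Kcnj8 were not. In limma 0 of 6 passed (1 at an unadjusted p under 0.05, Notch3, lower, where 5.7% of all genes were lower at that level). The 13 macrophage markers summed to 6838 to 7659 in WT and to 5731 to 6726 in Dock3 KO without overlap, led by Lyz2 and Csf1r. Of these 13, 12 had a log2 difference below 0 and 0 passed the limma test (1 at an unadjusted p under 0.05, Lyz2, lower, against the same 5.7% of all genes). Spp1 as a percentage of the macrophage sum was 0.356, 1.05 and 0.416 in WT and 0.446, 0.280 and 0.150 in Dock3 KO, so the groups overlapped on this measure too. Of 6 regenerating fibre markers 5 were tested, 4 of these had a log2 difference below 0 (median -0.54), and 0 passed the limma test. At an unadjusted p under 0.05 there were 2, both lower, where 5.7% of all genes were lower at that level. The sums of the regenerating fibre markers overlapped, with 229.7 to 464 in WT and 168 to 247 in Dock3 KO, and the most abundant were Myh3 and Myh8. Mymx, a myoblast fusion protein named after its values were seen, was at 8.61, 41.7 and 26.3 in WT and listed at 0 in all 3 Dock3 KO muscles (limma adjusted p 0.0544). Like Spp1 it was highest in WT replicate 3. The list's sum was instead highest in WT replicate 4 (464, against 267 in WT replicate 3). So were Myh3, Myog, Mymk and Chrng, while Myh8 was highest in Dock3 KO replicate 2. Chrng, the fetal subunit of the acetylcholine receptor, also named after its values were seen, was lower in Dock3 KO without overlap (limma adjusted p 0.327).

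Of the 7 bone and cartilage markers, Ibsp was listed at 0 in all 6 muscles, and Bglap, Dmp1, Acan and Sp7 reached at most 2.32, 2.68, 5.73 and 7.21. The other 2 were tested and 0 passed. Alpl, the tissue-nonspecific alkaline phosphatase, was at 175 to 285 with overlap. Col2a1, a cartilage collagen, was at 8.46, 11.5 and 4.18 in WT, against 32.3, 16.5 and 41.2 in Dock3 KO, without overlap and opposite in direction to Spp1 (unadjusted p 0.00980 and adjusted p 0.252 in limma). The part of smooth muscle, macrophage and regenerating fibre RNA in the Spp1 difference was not tested.

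**Figure D4:**
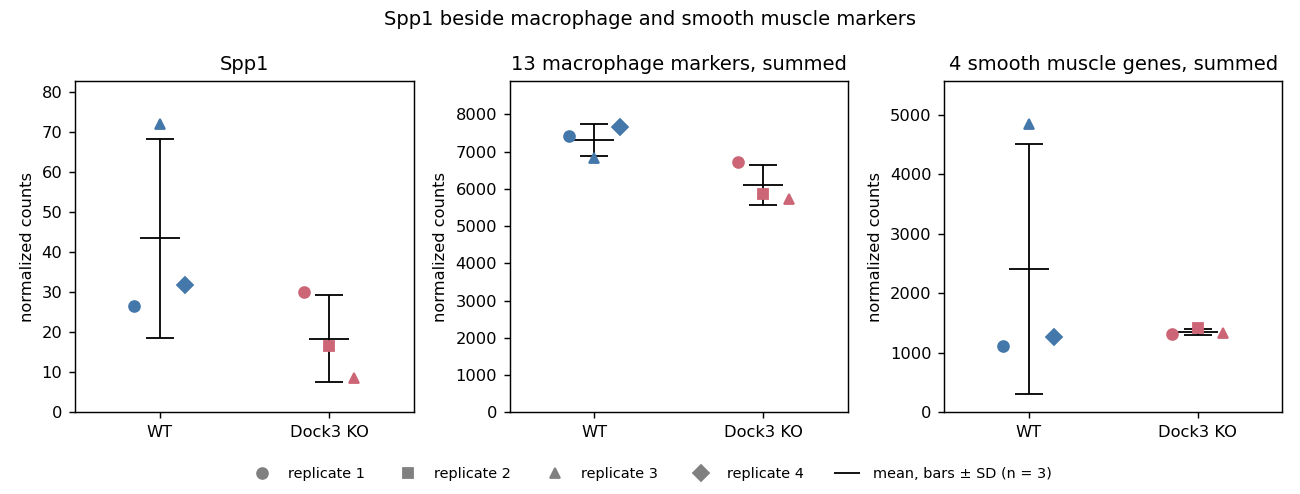
Normalized counts (vertical axes, each from 0) of Spp1, of 13 macrophage markers summed and of Acta2, Tagln, Myh11 and Cnn1 summed, in 3 WT and 3 Dock3 KO muscles, with mean ± SD (n = 3 each). WT replicate 3 is highest for Spp1 (71.8) and for the smooth muscle genes (4839), and the macrophage sums of the genotypes do not overlap.

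The promoters of Spp1, Ltbp3 and Ltbp4 are printed to show members with and without the letters that SMAD proteins recognise. The 300-base windows come from RefSeq (GRCm38.p6), from 250 bases before to 50 after an annotated start, and 9 of the 10 genes had at least 1. Capitals mark CAGAC or its complement GTCTG, the SMAD core, and TGANTCA, the AP-1 motif, searched on both strands. Spp1 lies at chr5:104434861-104435160 (plus strand), Ltbp3 at chr19:5740650-5740949 (plus strand) and Ltbp4 at chr7:27337563-27337862 (minus strand), each written 5′ to 3′.
Spp1: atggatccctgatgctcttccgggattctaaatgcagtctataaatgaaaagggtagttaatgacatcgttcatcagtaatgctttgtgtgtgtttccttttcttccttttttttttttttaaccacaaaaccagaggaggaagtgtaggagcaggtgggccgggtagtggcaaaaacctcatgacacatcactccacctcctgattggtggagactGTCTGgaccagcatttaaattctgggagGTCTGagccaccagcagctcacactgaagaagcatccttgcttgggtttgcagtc
Ltbp3: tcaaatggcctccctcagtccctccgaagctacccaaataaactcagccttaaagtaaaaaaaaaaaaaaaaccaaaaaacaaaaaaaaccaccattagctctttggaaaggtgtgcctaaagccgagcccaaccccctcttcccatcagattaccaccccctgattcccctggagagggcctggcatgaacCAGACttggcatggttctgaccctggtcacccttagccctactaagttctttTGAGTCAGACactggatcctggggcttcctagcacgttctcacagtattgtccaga
Ltbp4: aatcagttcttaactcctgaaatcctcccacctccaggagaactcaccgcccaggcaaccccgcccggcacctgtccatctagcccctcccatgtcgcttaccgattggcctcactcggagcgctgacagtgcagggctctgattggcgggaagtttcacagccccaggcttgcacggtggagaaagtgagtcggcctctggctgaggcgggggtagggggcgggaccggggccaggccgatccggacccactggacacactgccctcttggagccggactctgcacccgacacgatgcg
Spp1 and Ltbp3 each held the SMAD core 2 times in the printed window. In Ltbp3 the copy next to the start overlaps an AP-1 motif, the only AP-1 match among the members. None of the 3 annotated Ltbp4 windows, nor that of Tgfb1, held the core, while 7 of 9 members did in at least 1 window. Over all members, 9 of 14 windows held it, and 49.6% of all 32851 RefSeq windows did. The AP-1 motif was in 1 of the 14 and in 7.81% of all windows. A match of letters is not a measured site.

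The genes whose pattern over the 6 muscles was most like that of a member, by Pearson's r on the log2 scale among 9981 genes with a mean of at least 100, were as follows. Among those nearest to Spp1 were Clec14a (0.981), a protein of the endothelial surface, and Tnks1bp1 (0.981). Tgfb1 was nearest to Rrp8 (0.998), Mmp19 (0.994) and Slx1b (0.992), all of which shared its high value in WT replicate 1. Tgfb2 was nearest to Nr3c2 (0.963), the mineralocorticoid receptor, Dvl3 (0.958) and Zfp664 (0.956). For Ltbp2 these were Adamtsl1 (0.978), Kdm2b (0.978) and Gorasp1 (0.975), and for Ltbp4 they were Bcl2l13 (0.990), Chd4 (0.980) and Sec24c (0.979). With 6 muscles and so many genes, the values describe these libraries only.

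Beside the members, a few genes that hold or release latent TGF-beta rose. Of 20 genes of latent TGF-beta storage and activation, 19 were tested and 2 rose, Itgb6 and Fbn1, while 0 fell, where 0.443% of all genes rose. The list's median log2 difference was 0.15, and 6 genes lay above the WT range and 1 below it (7.6% and 8.65% of all genes). This list was chosen with earlier results of these data known, so its counts beside those of all genes are a description and not separate evidence. Itgb6 (chromosome 2, 60598292 to 60722643, minus strand) encodes the beta subunit of an integrin that releases TGF-beta1 and TGF-beta3 from their latent complexes. Its WT muscles measured 604, 585 and 605 normalized counts, and its Dock3 KO muscles 1043, 1037 and 1188. The WT muscles were nearly alike and every Dock3 KO muscle lay far above them, a log2 difference of 0.86 (SE 0.127, 1.82-fold, 95% interval 1.49 to 2.21, limma adjusted p 0.00926).

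Fbn1, the fibrillin to which the binding proteins attach, was at 3755, 3090.0 and 3513 in WT, against 5899.8, 5259 and 5794 in Dock3 KO (log2 difference 0.71, limma adjusted p 0.0275). Every Dock3 KO muscle lay above every WT muscle. Thbs1, the thrombospondin that can release TGF-beta from its propeptide, had means of 606 ± 244 and 1309.7 ± 206 (SD, n = 3 each) without passing (log2 difference 1.18, limma adjusted p 0.0892). Mmp14, a membrane protease, stood at a log2 difference of 0.58 with a limma adjusted p of 0.228. The Itgb6 call was lost in 6 of 18 alternatives (limma adjusted p from 0.00590 to 0.211), among them the fits without WT replicate 3 and without Dock3 KO replicates 1 and 2 (adjusted p 0.0580 and 0.122), and that of Fbn1 in 12 of 18.

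Itgb6 pairs with Itgav, the alpha subunit of that integrin, named here after its values were seen. Itgav was at 1495, 1295 and 1168 in WT, against 782, 1498 and 1336 in Dock3 KO, with a log2 difference of -0.18 and a limma adjusted p of 0.866. Dock3 KO replicate 1 was the lowest, and replicate 2 the highest of the 6.

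Coreceptors and SMAD genes gave no call. Of 19 tested, 0 rose and 0 fell in limma, and the median log2 difference was 0.06. At an unadjusted p under 0.05 there was 1 (Acvrl1, lower), where 5.7% of all genes were lower at that level. Acvrl1, an endothelial type I receptor, averaged 425 ± 23.9 normalized counts for WT and 326 ± 49.0 for Dock3 KO (SD, n = 3 each), or -0.39 on the log2 scale (limma adjusted p 0.430). Skil, a SMAD repressor that TGF-beta itself induces, had a log2 difference of 0.42, Bambi, a decoy receptor, of -0.56, and Smad1, a mediator of BMP signals, of -0.23. Their limma adjusted p-values were 0.501, 0.628 and 0.706. The shared mediator Smad4, chosen after its values were seen, was at 1075 to 1164 in WT and 1122 to 1173 in Dock3 KO.

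In the list of the activin and myostatin branch, which also holds bone morphogenetic protein ligands and receptors, no gene passed. Of 14 genes tested of 15, 0 rose and 0 fell, and the median log2 difference was -0.13. In limma 4 had an unadjusted p under 0.05, all 4 of them lower in Dock3 KO (5.7% of all genes were lower at that level). These 4 were Gdf11, Bmp4, Bmp6 and Acvr1b. Gdf11, a ligand closely related to myostatin, was at 517, 363 and 472 in WT, against 274, 216 and 190.2 in Dock3 KO. Every Dock3 KO muscle lay below every WT muscle, with a log2 difference of -0.99 and a limma adjusted p of 0.0537, just short of the threshold. It ranged from 0.00970 to 0.253 over the alternatives and was past the threshold in 6 of 18. Bmp4 and Bmp6, bone morphogenetic protein ligands, had log2 differences of -1.05 and -0.56, and Acvr1b, a type I receptor of activin and myostatin, of -0.35. Their limma adjusted p-values were 0.105, 0.269 and 0.309.

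Among genes that TGF-beta is known to induce, 2 collagens rose. Of 21 response genes, 20 were tested, 2 rose (Col1a1 and Col3a1) and 0 fell, where 0.443% of all genes rose and 0.586% fell. The median log2 difference was 0.27, and 7 lay above the WT range and 0 below it, against 7.6% and 8.65% of all genes. Col1a1 (chain of type I collagen) had a log2 difference of 1.38 and Col3a1 (type III collagen) of 0.87 (limma adjusted p 0.0228 and 0.0168). Both genes, and Col1a2 and Col5a1, also among the 7, are collagens of a matrix list already examined in these muscles. The 2 calls, the count of 7 and the median are therefore not separate evidence. Col1a2 and Col5a1 had log2 differences of 0.88 and 0.64 (limma adjusted p 0.0537 and 0.119). Without Dock3 KO replicates 1 and 2, which leaves 1 Dock3 KO muscle, neither this list nor the activation list kept a call. Their median log2 differences were then 0.265 and 0.158.

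Other response genes are named here after their values were seen. Ccn2, connective tissue growth factor, was at 491, 272 and 283 in WT, against 525, 796 and 823 in Dock3 KO, without overlap, with a log2 difference of 1.06 (limma adjusted p 0.119). Smad7, the inhibitory SMAD, stood at -0.28 and Pmepa1, a feedback inhibitor, at 0.044 on the log2 scale (limma adjusted p 0.744 and 0.964). Acta2 and Tagln, which are also smooth muscle genes, were highest in WT replicate 3 (2371 and 1158 normalized counts).

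**Figure D5:**
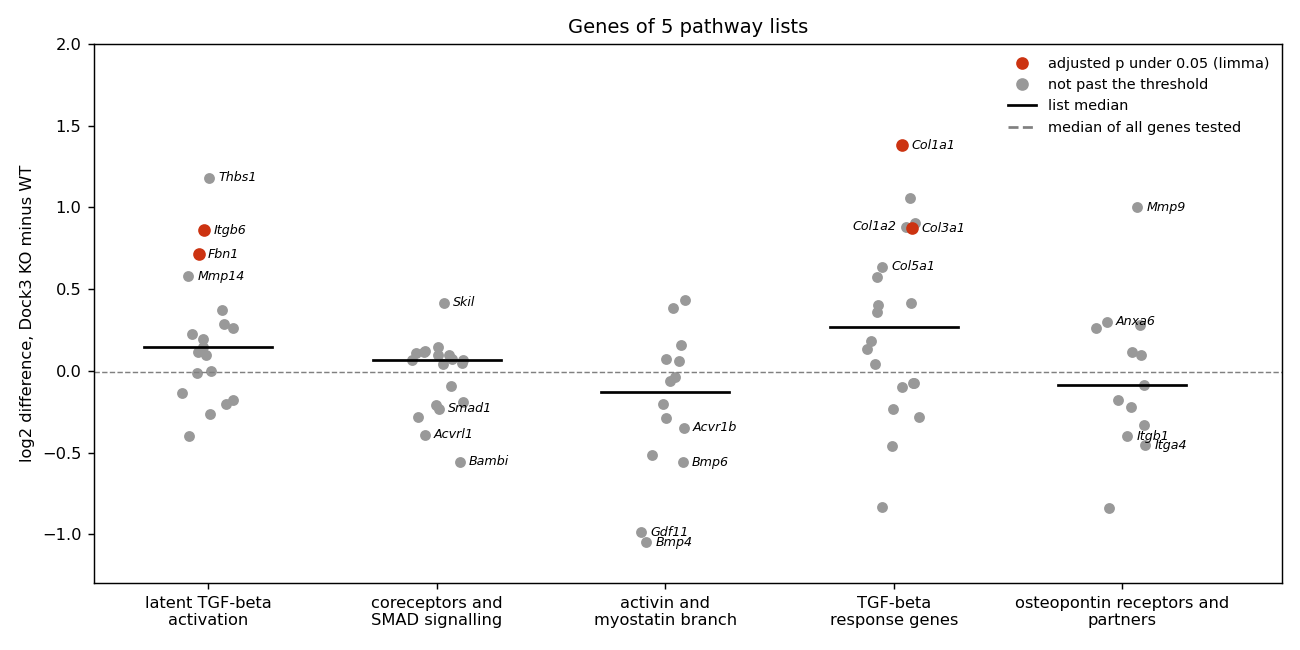
Log2 difference between Dock3 KO and WT (vertical axis) of each gene tested in 5 pathway lists (horizontal axis), with red points past a limma adjusted p of 0.05, black bars at list medians and a dashed line at the median of all genes. Itgb6, Fbn1, Col1a1 and Col3a1 are red, and list medians run from -0.13 to 0.27.

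Osteopontin's receptors and partners gave no call. Of 13 tested of 14, 0 rose and 0 fell in limma, with a median log2 difference of -0.08. At an unadjusted p under 0.05 there were 3, 2 higher and 1 lower in Dock3 KO, against 4.82% and 5.7% of all genes. Mmp9, a protease that cleaves osteopontin, was at 74.0, 63.0 and 57.1 in WT, against 149, 109 and 134 in Dock3 KO. The groups did not overlap, with means of 64.7 ± 8.61 and 131 ± 19.9 (SD, n = 3 each) and a limma adjusted p of 0.105. Itgb1, the common beta subunit of many matrix integrins, had a log2 difference of -0.40, Anxa6, a membrane repair protein, of 0.30, and Itga4, an alpha subunit, of -0.45. Their limma adjusted p-values were 0.297, 0.362 and 0.553. Cd44, the hyaluronan and osteopontin receptor, named after its values were seen, was at 287, 244 and 334 in WT, against 265, 223 and 331 in Dock3 KO. Its log2 difference was -0.08 with a limma adjusted p of 0.937.

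Markers of matrix-producing cells were set beside these lists. The 8 fibro-adipogenic cell markers, from cells that make much of the muscle's collagen, summed to 9499 to 12496 in WT and to 9338 to 10592 in Dock3 KO, led by Cd34 and Pdgfra, with 0 of 8 past the threshold. At an unadjusted p under 0.05 in limma there were 2 of 8, both lower, where 5.7% of all genes were lower at that level. The 6 tendon markers, led by Fmod and Thbs4, had log2 differences above 0 in 5 of 6, and summed to 5560 to 11184 in WT and to 8818 to 15739.5 in Dock3 KO, with 0 of 6 past the threshold in limma (0 at an unadjusted p under 0.05). The part of tendon or fibroblast RNA in the collagen, Fbn1 and Thbs1 differences was not tested.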

How the data were processed

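Total RNA depleted of ribosomal RNA was sequenced from 3 WT and 3 Dock3 KO tibialis anterior muscles. The authors deposited 1 table of normalized counts, a signal per gene that is neither whole numbers nor of fixed sum. Per the submitters' processing notes, FastQC, Trim Galore 0.4.5, Salmon 0.12.0, DESeq2 1.22.1 and R 3.5.3 were used, with mm10 and GRCm38. The roles of these tools, the gene annotation and the use of strand in counting are not given in the sources used here. All 54393 identifiers matched GENCODE M21 (GRCm38), from which symbols, 1-based positions and transcript lengths were taken.

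Only 29.0% to 43.6% of low values were whole multiples (within 0.02 reads) of the commonest low value, so whole reads were not recovered and no count test was run. Precision rests on 3 muscles per genotype. Values were tested as log2(normalized count + 1), for genes with a mean of at least 10, using limma 3.58.1 (R 4.3.3; lmFit and trended eBayes, no covariate), with Benjamini-Hochberg adjustment over 16031 genes and a threshold of 0.05. Plots used matplotlib 3.10.9.

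The members and lists were chosen with earlier results of these data known. All 10 members are named, with, per pathway list, called genes and the 4 of lowest p. Genes most like a member and the most abundant genes of a marker list are also named. Any other gene of a list, single marker genes such as Alpl, Col2a1 and Notch3 included, was named with its values known. Some genes that this rule or an overlap would name are not reported here. Alternatives were other pseudocounts, filters, scalings, variance priors, a covariate, a replicate block and left-out muscles.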

Additional observations from a re-analysis of the deposited data

How the results depend on the processing

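No member passed the threshold in any of 18 alternatives, of which the fit without Dock3 KO replicates 1 and 2, leaving 1 Dock3 KO muscle assumed to vary like the others, was chosen after seeing the data. The number of members at an unadjusted p under 0.05 was 0 to 3. Spp1 and Ltbp2 are too low to be tested at a minimum mean of 50. Rescaling to the same total applies 1 factor to every gene of a library, and the median of all genes moved to -0.28. Tgfb2 moved to -0.21, Ltbp1 to -0.081, Tgfbr1 to -0.40, Tgfbr2 to -0.28 and Ltbp4 to -0.43. The calls over all genes went from 71 higher and 94 lower to 41 higher and 136 lower. Leaving Gm42418 and Lars2 out of the total gave a median of -0.11, Tgfb2 at -0.042 and 52 higher against 110 lower calls. With log2 Gm42418 as a covariate Tgfbr2 stood at 0.20 and Ltbp4 at 0.12. Over the fits without 1 muscle, Tgfb1 ran from -0.26 to 0.10 (without WT replicate 1), Tgfb2 from -0.037 (without WT replicate 4) to 0.16, Tgfbr2 from -0.100 to 0.10 (without Dock3 KO replicate 1; 0.04 without WT replicate 3) and Ltbp2 from -0.36 (without WT replicate 4) to 1.18. Without Dock3 KO replicates 1 and 2, Tgfb1 was 0.024, Tgfbr2 0.18 and Ltbp4 0.088, and 49 genes in all passed. Why the library sums differ, and the cause of the moves in the fits without rescaling, were not tested.

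Of the 2 activation genes past the threshold, 0 remained when rescaled to the same total, with a prior variance without trend, with the Gm42418 covariate and without Dock3 KO replicates 1 and 2, and 1 (Itgb6) when rescaled without Gm42418 and Lars2 and with quantile normalization. Across the fits without 1 muscle the count was 0 to 3. Of the 2 response genes, 0 remained with both rescalings, without trend, with the covariate and without Dock3 KO replicates 1 and 2, 4 passed without a filter, and 0 to 3 passed without 1 muscle. In the activin and myostatin branch 1 gene (Gdf11) passed without a filter, at a minimum mean of 50, with both rescalings and with a robust prior, and 0 to 1 without 1 muscle.

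With the replicate number as a block, 0 members, 0 activation genes and 1 response gene (Col1a1) passed, Tgfb2 stood at -0.061 and Ltbp2 at -0.43. The deviations of the 2 same-numbered pairs correlated at 0.0649 and 0.00663 across genes, and no label says that a number pairs muscles.

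Spp1 and Ltbp2 are low genes with the widest intervals of the 10 members, and what depth contributes to those widths was not tested.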
